A study of Mus musculus with 6 samples.

Results

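The cells described here are 746 endothelial barcodes of the mouse aorta in which Sema3g, Stmn2, St8sia6 and Alpl together outweighed the marker sums of 3 other endothelial classes. The members were selected on these UMI counts themselves, as arteriolar endothelial cells, and are called the Sema3g class below, since the position of a cell in the vessel wall was not measured. The data are single-cell RNA sequencing counts (10x Genomics droplets) of aortic tissue from 6 mouse samples. The labels assign 3 samples to the genotype Best3FL/FL, floxed controls, and 3 to Best3SMKO, in which the channel gene Best3 was deleted in smooth muscle. The sources used here name no promoter for the deletion, no age, sex or treatment of the mice and no number of mice per sample. The combined matrix holds 60871 barcodes and 399340994 unique molecular identifiers (UMIs) in 6 libraries, which are told apart by a barcode suffix but match no sample label. No library was therefore assigned to a genotype, and no value below compares knockout with control.

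Arterioles are the small arteries whose tone sets blood flow into a capillary bed. In a vessel such as the aorta, small arteries and arterioles also run in the outer wall and the surrounding fat, where they feed the vessel itself and its adventitia. Arterial endothelial identity is maintained by Notch signalling, in which the ligands Dll4, Jag1 and Jag2 activate receptors such as Notch1 and Notch4 and induce the transcription factors Hey1 and Hey2, together with SoxF factors such as Sox17. Capillary endothelium, in contrast, is known for fatty acid handling genes such as Fabp4, Cd36 and Lpl, and the lining of elastic arteries for matrix genes such as Eln, Mgp and Fbln5.

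A minimum of 500 detected genes and a ceiling of 20% mitochondrial UMIs left 53983 barcodes. Of these, 12375 held at least 3 UMIs of the endothelial genes Pecam1, Cdh5, Egfl7, Kdr and Tie1. Barcodes with a UMI of the lymphatic genes Prox1 or Mmrn1 were then dropped, as were those with 1.5% or more of their UMIs in the smooth muscle genes Acta2, Tagln, Myh11 and Cnn1. The 8401 gated endothelial barcodes that remained had a median of 4687 UMIs. A gated barcode entered the Sema3g class when Sema3g, Stmn2, St8sia6 and Alpl summed to at least 3 UMIs and to more than each of the other sums. The 3 classes used for comparison were cut by the same rule with the sums exchanged. The Gpihbp1 class (Gpihbp1, Car4, Cd300lg, a capillary rule) held 3028 cells, the Gkn3 class (Gkn3, Klk10, Gja5, Bmp6, a large-artery rule) 1868, and the Selp class (Selp, Lrg1, Tmem252, Ackr1, a venous rule) 1276. A further 1483 gated barcodes fell in no class.

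The Sema3g class made up 8.88% of the gated endothelial barcodes (exact 95% interval 8.28 to 9.51) and 1.38% of all barcodes that passed quality limits. Libraries 1 to 6 held 136, 164, 49, 160, 146 and 91 of its cells, or 9.41%, 10.8%, 6.19%, 7.14%, 10.2% and 9.34% of their gated barcodes. Library 3 had the lowest share and the fewest cells, library 4 the next lowest share, and the other 4 libraries lay close together with overlapping intervals. Intervals here and below cover counting error only, and dissection and dissociation can set such shares. Class members had a median of 5003.5 UMIs and 2265.5 genes, and together held 4362329 UMIs. Their median mitochondrial share ran from 3.72% in library 1 to 6.80% in library 3.

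**Figure D1:**
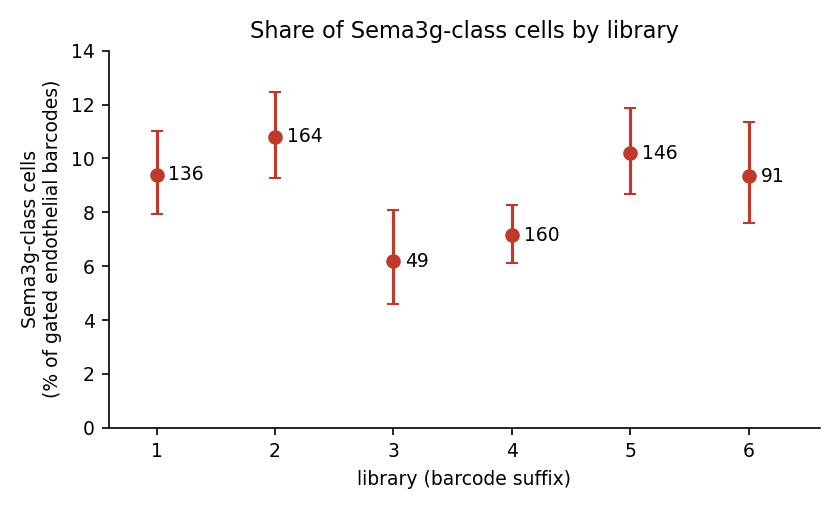
Share of Sema3g-class cells among gated endothelial barcodes (y axis, percent) in each of the 6 libraries (x axis), with exact 95% intervals for counting error and the number of cells beside each point. Library 3 lies lowest at 6.19% and library 2 highest at 10.8%.

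Best3, the gene deleted in the knockout, had 0 UMIs in the 746 cells, a count that still permits a detection share of 0.402%. It had 26 UMIs in the whole matrix and 1 in the gated endothelial barcodes, so it checks no label here. Among class members, those with Xist but no Y-linked UMI numbered 21, 13 and 28 in libraries 1, 3 and 4 and 0 in libraries 2, 5 and 6, while members with Y-linked UMIs but no Xist were present in every library. Barcode sequences recur between libraries: 414 were found under more than 1 suffix, and 12 class members share their sequence with a barcode of another library, but none with another class member. Scrublet, which simulates doublets, called 28 of the 746 cells (3.75%) against 5.95% of the barcodes that passed quality limits. The latter share was raised by library 5, with 1774 of the 3214 calls (11.3% of its barcodes, against 5.48% of its members). Members were called more often than all barcodes in library 1 (4.41% against 4.19%) and library 2 (4.88% against 3.68%), and less often in libraries 3 to 6.

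The 4 genes of the rule have different known roles. Sema3g encodes a secreted class 3 semaphorin, a guidance factor that acts through neuropilin and plexin receptors. Stmn2 encodes stathmin-2, a microtubule regulator best known from growing neurons, Alpl the tissue-nonspecific alkaline phosphatase, and St8sia6 a sialyltransferase. Because these genes chose the cells, their values are a description. Stmn2 was seen in 682 of the 746 cells (91.4%), Sema3g in 649 (87.0%), Alpl in 423 (56.7%) and St8sia6 in 379 (50.8%). All 4 genes were seen in 233 cells, 3 in 247, 2 in 194 and only 1 in 72, and 598 cells carried both Sema3g and Stmn2. Of the 72 cells with a single gene, 51 held Stmn2 alone.

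Levels are given as CPM, the UMIs of a gene per 1000000 UMIs summed over a class. Sema3g (ENSMUSG00000021904, chromosome 14 from 31217860 to 31230352, plus strand, GRCm38) stood at 605, 753, 711, 759, 650 and 1056 CPM in class members of libraries 1 to 6. Library 6 was the highest, and every library lay above all libraries of the Gpihbp1 class, which reached at most 184 CPM. The class level of Sema3g was 748 CPM (95% interval 722 to 774), against 145 CPM in the Gpihbp1 class, 84.0 in the Gkn3 class and 6.05 in the Selp class. Stmn2 (ENSMUSG00000027500, chromosome 3 from 8509360 to 8561606, plus strand) stood at 844 CPM, with libraries between 712 and 1035. The Gkn3 class held Stmn2 at 256 CPM, and libraries of the Selp and Gpihbp1 classes stayed below those of the Gkn3 class. Alpl (ENSMUSG00000028766, chromosome 4 from 137741733 to 137796384, minus strand) stood at 268 CPM and at 24.8, 3.47 and 2.14 CPM in the Gpihbp1, Gkn3 and Selp classes. St8sia6 (ENSMUSG00000003418, chromosome 2 from 13651021 to 13794064, minus strand) stood at 178, 26.9, 12.5 and 1.39 CPM in the same order.

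The edge of the class was not sharp. The rule sum had a median of 9 UMIs and a maximum of 83, with 63 cells at the minimum of 3 and 370 cells at 10 or more. Of 1932 gated barcodes with a sum of at least 3, 1120 were below the largest other sum and 66 were tied with it. Most of those passed over went to the Gkn3 class (598), followed by the Gpihbp1 class (409) and the Selp class (112). In 81 members the rule sum exceeded the next one by a single UMI. Just inside the edge, the 63 cells with a sum of 3 held Sox17 at 164 CPM and Jag2 at 92.3 CPM. Just outside it, 76 cells with a sum of 2 held Sox17 at 112 CPM and Jag2 at 75.2 CPM, and the 66 tied cells held them at 323 and 89.8 CPM. Cells with a sum of 10 or more held Sox17 at 426 CPM and Jag2 at 224 CPM.

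Of the label markers, Sox17, Jag2 and Hey1 are arterial genes that were not part of the rule. The label and its markers were chosen with earlier results of these data known. Their values therefore describe the class and do not test its name. All 3 were highest in the Sema3g class in each of the 6 libraries, with no overlap with the libraries of the other classes. Of all genes compared, 1200 (19.2%) had a summed level above all 3 other classes. The share of all genes without overlap between libraries is not given here, for these or later genes. Sox17 (ENSMUSG00000025902, chromosome 1 from 4490931 to 4497354, minus strand) stood at 423, 336, 277, 505, 329 and 367 CPM in class members of libraries 1 to 6. Its highest library in any other class was at 233 CPM, in the Gpihbp1 class. Jag2 (ENSMUSG00000002799, chromosome 12 from 112907819 to 112929776, minus strand) stood at 157, 174, 195, 182, 211 and 239 CPM. Libraries of the Gpihbp1 class reached 131 CPM for Jag2, and those of the Selp class 44.3 CPM. Hey1 (ENSMUSG00000040289, chromosome 3 from 8663359 to 8667256, minus strand) stood at 96.7, 102, 72.3, 122, 133 and 187 CPM, with at most 50.6 CPM in a library of the Gpihbp1 class and 18.5 CPM in one of the Gkn3 class.

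Detection per cell gave the same order as the CPM for these 3 genes, except that Sox17 was seen in 53.9% of Gkn3-class and 43.8% of Gpihbp1-class cells before depth was equalised. With each cell thinned to 2000 UMIs, which left out 71 of the 746 class members, 602 Gpihbp1-class, 101 Gkn3-class and 75 Selp-class cells, Sox17 was seen in 47.3% of class members, 28.4% of Gpihbp1-class, 24.4% of Gkn3-class and 9.83% of Selp-class cells. Hey1 was seen in 20.4%, 7.21%, 2.04% and 0.833% of the thinned cells in that order. Unthinned, class members carried Sox17 in 72.8%, Jag2 in 53.9% and Hey1 in 36.1% of cells. As a background, 11838 fibroblast barcodes with no endothelial UMI (median 5712 UMIs) carried Sox17 in 0.498%, Jag2 in 0.414% and Hey1 in 3.45% of cells. In 2321 macrophage barcodes with no endothelial UMI (median 5149 UMIs), the shares were 0.603%, 1.59% and 0.905%. Free RNA was not told apart from expression by these cells themselves. At 2000 UMIs, 28 of 675 class members held all 3 genes (4.15%, interval 2.77 to 5.94) against 15 of 2426 Gpihbp1-class cells, 1 of 1767 Gkn3-class cells and 0 of 1201 Selp-class cells (upper limit 0.307%). None of the 3 genes was seen at that depth in 33.0% of class members, against 55.2% to 83.3% in the other classes. All 3 genes were higher in the Gpihbp1 class than in the Gkn3 class. Sox17 stood at 206 against 147 CPM, Jag2 at 104 against 12.5 CPM and Hey1 at 45.8 against 12.4 CPM. These genes thus do not set the large-artery class above the capillary class here. The values neither test nor establish an arterial name. Whether the vessels were arterioles rather than larger branches was not measured.

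Genes were set against each class by a rule of size, because the libraries cannot serve as labelled replicates and no test was made. A gene met the rule when it reached 30 CPM on either side, its ratio with 5 CPM added to both sides was at least 2, and the direction was the same in every library with at least 20 cells in both classes. The genes of the gate and of the sums were left out. All ratios and multiples of a level from here on have 5 CPM added to both sides, which shrinks them most where a level is low. Since the classes were cut from the same counts, these calls describe the cells the rule took. Against the Gpihbp1 class, 382 of 5796 genes were higher (6.59% of those compared) and 366 lower (6.31%). Against the Gkn3 class, 265 of 5649 genes were higher (4.69%) and 193 lower (3.42%). Against the Selp class, 322 of 5645 genes were higher (5.7%) and 269 lower (4.77%). Against all other gated barcodes together, 127 of 5715 genes were higher (2.22%) and 206 lower (3.6%). Of the 3 classes, the Gkn3 class gave the fewest calls; the classes also differ in size and depth. Of 6243 genes compared with any class, 4217 (67.5%) had a level between the lowest and the highest of the other 3 classes.

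Higher than in all 3 other classes were 54 genes (0.865% of 6243), and lower than in all 3 were 3 genes (0.0481%). The rule asks for the same direction in every library compared, so separate libraries in these genes follow in part from the choice. Jag1, a Notch ligand, stood at 339, 279, 277, 322, 315 and 384 CPM in libraries 1 to 6, against at most 104 CPM in any library of another class. The groups did not overlap. With 5 CPM added to both sides, Jag1 was 3.4 times the Gkn3 class and 7.35 times the Gpihbp1 class. Gper1, a membrane receptor for oestrogen, stood at 74.8, 50.9, 44.0, 90.5, 42.8 and 71.0 CPM, with at most 5.12 CPM in a library of another class. It was seen in 176 of the 746 cells. Dkk2, a secreted regulator of Wnt signalling, stood at 70.9, 89.6, 69.2, 72.8, 77.3 and 88.3 CPM in class members and at most 8.89 CPM elsewhere. Its ratios, with 5 CPM added, were 14 against the Gpihbp1 class, 6.96 against the Gkn3 class and 12.9 against the Selp class. The levels themselves were 79.1 CPM in class members and 1.01, 7.08 and 1.51 CPM in those classes.

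The genes with the largest ratios also held Nebl, Eps8l2 and Aif1l. Nebl, which encodes the actin-binding protein nebulette, stood at 149 CPM (137 to 160), with libraries between 96.2 and 178. The other classes held it at 27.7 CPM or less. Eps8l2, of a family of proteins that bind and regulate actin, stood at 157 CPM with libraries between 121 and 194, against 31.5 CPM in the Gpihbp1 class. Aif1l, a relative of the actin-binding protein Aif1, stood at 46.3 CPM and at 9.04 CPM or less in the other classes. Libraries of none of these genes overlapped between the Sema3g class and another class.

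Several further genes with the largest ratios encode signalling and membrane proteins. Rasd1, a small GTPase induced by glucocorticoids, stood at 168 CPM against 43.4 CPM in the Gpihbp1 class and 12.1 CPM in the Gkn3 class. Cdk19, a kinase of the Mediator complex, stood at 177 CPM and varied little between libraries, from 160 to 197. Islr2, a membrane protein with leucine-rich repeats known from neurons, stood at 44.5 CPM, with libraries from 19.0 in library 6 to 76.1 in library 4. Kcne3, an accessory subunit of potassium channels, stood at 70.6 CPM. Its call against all 3 classes ended with at most 10% mitochondrial UMIs. Library 3 held Kcne3 at 22 CPM, below the highest library of the Gkn3 class at 22.9 CPM. Ssu2 (65.1 CPM), Egfl8 (48.6 CPM, an EGF-like domain protein) and Tspan8 (31.2 CPM, a tetraspanin) completed the group with 8.66 CPM or less in every other class. Tspan8 came from only 34 cells and overlapped between classes, with 5.19 CPM in library 6. It no longer met the rule against all 3 classes without library 1, without library 5, with each cell given equal weight, with at least 2 rule genes required, or with barcodes holding Epcam or Ptprc left out.

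**Figure D2:**
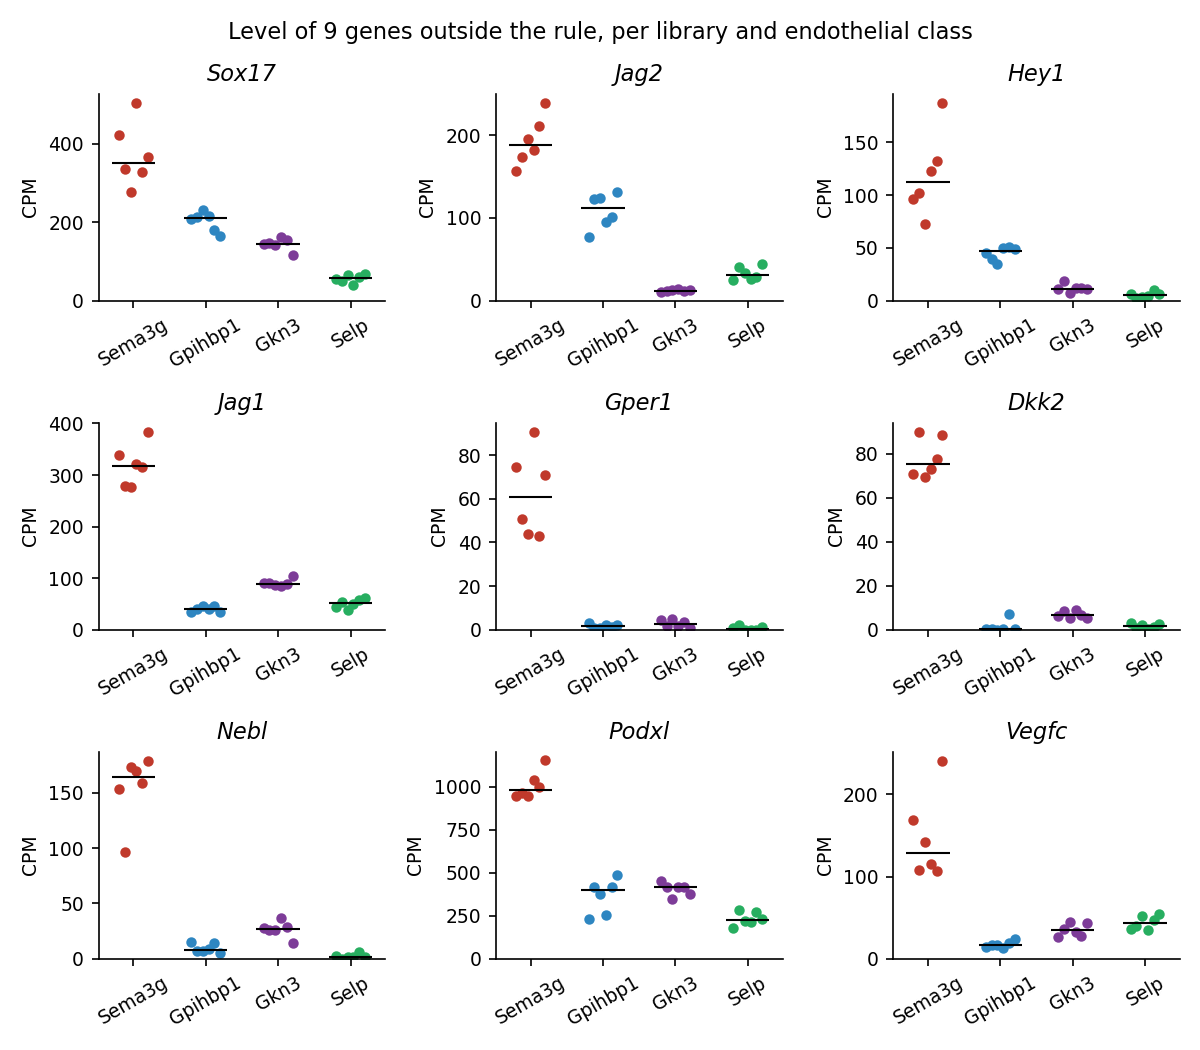
CPM of 9 genes that were not in the rule (y axes, linear from 0) in the Sema3g, Gpihbp1, Gkn3 and Selp classes, with 1 point per library (6 per class) and the median as a line. For Jag1, the 6 libraries of the Sema3g class lie between 277 and 384 CPM and those of the other classes at 104 CPM or less. In these 9 genes the Sema3g class lies above the others without overlap. The 9 are not a sample of all genes compared, for which the share without overlap is not given here.

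Gsto1 and Ano1 were uneven between libraries. Gsto1, a glutathione transferase, stood at 852 CPM in library 5 and between 46.3 and 51.9 CPM in the other 5 libraries. Just 2 cells held 69.5% of its UMIs. Library 5 was also the highest for Gsto1 in the Gkn3 class, at 191 CPM. The epithelial gene Epcam was seen in 6 class members, all in library 5, where it stood at 55.2 CPM. Krt8 stood at 184 CPM in library 5 and 82.1 CPM in library 2, against 6.29 CPM or less in the other libraries. With barcodes holding Epcam or Ptprc left out, Gsto1 still met the rule against all 3 classes and Tspan8 no longer did. Gsto1 also met it without library 5, but not when class members had to hold at least 2 of the 4 rule genes.

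Ano1, a calcium-activated chloride channel, stood at 83.0 CPM in library 2 and between 15.5 and 40.0 CPM in the others. The 51 cells in which Stmn2 was the only rule gene held Ano1 at 278 CPM, against 15.9 CPM in the 649 cells with Sema3g. The same 51 cells held the water channel Aqp1 at 1245 CPM and Sox17 at 59.8 CPM, where the cells with Sema3g held 67.9 and 431 CPM. Hey1 differed in the same direction as Sox17, with 26.9 CPM in the Stmn2-only cells and 134 CPM in the cells with Sema3g. The Stmn2-only cells thus had low levels of the label markers that the rule did not use. Ano1 no longer met the rule against all 3 classes without library 2, with each cell given equal weight, or when at least 2 of the 4 rule genes were required.

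The 3 genes lower than in every other class were Selenop, Fmo1 and Ptprk. Selenop, a secreted selenium carrier, stood at 384, 390, 261, 318, 327 and 258 CPM in class members, against 731 to 978 CPM in the other classes. Its libraries did not overlap with those of any other class, and it met the rule under every alternative and with each library left out. Fmo1, a flavin monooxygenase, stood at 69.2 CPM against 152 CPM in the Gkn3 class, 307 in the Gpihbp1 class and 354 in the Selp class. Ptprk, a receptor tyrosine phosphatase, stood at 15.8 CPM on 69 UMIs, against 38.3 to 59.0 CPM. Fmo1 no longer met the rule against all 3 classes without library 2, without library 4 or with each cell given equal weight. Ptprk dropped out without library 1 and also without library 2.

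Notch and arterial genes were followed through lists chosen with earlier results of these data known, so their counts are descriptions. Of 14 Notch pathway genes compared, 3 were higher and 0 lower than in the Gpihbp1 class, 5 higher and 1 lower than in the Gkn3 class, and 7 higher and 1 lower than in the Selp class. The median log2 ratios of the list were 0.26, 0.42 and 1.11, where all genes compared had medians of -0.02, 0.01 and 0.07. Over all genes compared, 6.59% were higher and 6.31% lower than in the Gpihbp1 class. The shares were 4.69% and 3.42% against the Gkn3 class, and 5.7% and 4.77% against the Selp class. The counts of this and every later list are to be read beside these shares. Among the ligands, Jag1 was higher than in all 3 classes and Jag2 met the rule against the Gkn3 and Selp classes, with a ratio of 1.78 against the Gpihbp1 class. Dll4, a ligand of arterial and sprouting endothelium, stood at 113 CPM, against 147 in the Gpihbp1 class and 22.6 in the Gkn3 class, and met the rule against the Gkn3 and Selp classes. The receptor Notch1 stood at 349 CPM and between 237 and 343 CPM elsewhere, and met the rule in no comparison. Notch4, an endothelial receptor, stood at 159 CPM against 170 in the Gpihbp1 class, 88.5 in the Gkn3 class and 17.0 in the Selp class.

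The Hey factors, which act downstream of Notch, were both higher than in the Gpihbp1 class and differed in their order against the Gkn3 class. Hey1 was higher than in all 3 other classes (with 5 CPM added, 2.45 times the Gpihbp1 class and 7.14 times the Gkn3 class). Hey2 stood at 44.7 CPM, higher than the 5.28 CPM of the Gpihbp1 class and lower than the 129 CPM of the Gkn3 class. Of the arterial identity list, 14 of 24 genes were higher and 2 lower than in the Gpihbp1 class, and 9 of 23 were higher and 1 lower than in the Gkn3 class. Against the Selp class, 16 of 23 were higher and 0 lower, and the list medians were 1.33, 0.45 and 1.33 on the log2 scale. Vegfc, a growth factor for lymphatic and other endothelium, stood at 140 CPM, with libraries from 106 to 241 against at most 53.9 CPM in another class. Tgfb2 (81.1 CPM), Crip1 (1685 CPM) and Nebl were also higher than in all 3 classes, of which Crip1 was not without library 2, with each cell given equal weight or with at least 2 rule genes required. The connexin gene Gja4 stood at 238 CPM, between 320 CPM in the Gkn3 class and 15.3 CPM in the Gpihbp1 class. Bmx, an arterial kinase, was likewise intermediate, at 171 CPM against 396 and 5.34 CPM. Cxcl12, a chemokine of arterial and capillary endothelium, stood at 279 CPM, against 1088 CPM in the Gpihbp1 class and 98.5 CPM in the Gkn3 class. Sox17 was 2.56 times the Gkn3-class level and 1.85 times the Gpihbp1-class level, the latter below the size rule.

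Sema3g itself belongs to a family whose receptors were also compared. Of 13 semaphorin, neuropilin and plexin genes compared with the Gpihbp1 class, 1 was higher and 5 lower, with a median log2 ratio of -0.30. The neuropilins, co-receptors for semaphorins and VEGF, stood at 262 CPM for Nrp1 and 14 CPM for Nrp2. Nrp1 was lower than in the Gpihbp1 class (817 CPM), and Nrp2 was lower than in the Gpihbp1 class (230 CPM) and in the Selp class (401 CPM). Plxna2 stood at 265 CPM and met the rule in no comparison. Plxnd1, the main endothelial plexin, stood at 164 CPM and between 142 and 204 CPM elsewhere, with no call.

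The capillary list turned with the class it was set against. Of its 19 genes compared with the Gpihbp1 class, 0 were higher and 15 lower, with a median log2 ratio of -2.43. Of 17 compared with the Gkn3 class, 10 were higher and 1 lower, with a median of 1.66. Fabp4, a fatty acid carrier, stood at 5071 CPM (5004 to 5138), between 30535 CPM in the Gpihbp1 class and 337 CPM in the Gkn3 class, and libraries of these classes did not overlap. Cd36, a fatty acid receptor, stood at 640 CPM against 4150 and 30.6 CPM. Timp4 (117 CPM) was lower than in the Gpihbp1 class (1506 CPM) and higher than in the Gkn3 (33.5 CPM) and Selp (39.2 CPM) classes. Lipoprotein lipase, Lpl, stood at 86.0 CPM against 1939 CPM in the Gpihbp1 class. Scarb1, a lipoprotein receptor, stood at 49.7 CPM, lower than in the Gpihbp1 (420 CPM) and Selp (267 CPM) classes and higher than in the Gkn3 class (14.3 CPM). Apoe, at 893 CPM, was lower than in the Gkn3 (3464 CPM) and Selp (2450 CPM) classes.

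The list of large-artery and elastic genes had the mirror pattern. Of 18 genes compared with the Gpihbp1 class, 13 were higher and 0 lower (median log2 ratio 2.04). Of 19 compared with the Gkn3 class, 1 was higher and 7 lower (median -0.53). Mgp, a matrix protein that inhibits calcification, stood at 9729 CPM, close to the 9702 CPM of the Gkn3 class and 8.48 times the Gpihbp1-class level. Its libraries ranged from 5650 to 11368 CPM. Eln, elastin, stood at 716 CPM and was lower than the 1455 CPM of the Gkn3 class. Lower than in the Gkn3 class were also Cytl1 (2375 against 7157 CPM), Cpe (254 against 1254 CPM) and Mfap5 (130 against 395 CPM). The 1 gene of this list above the Gkn3 class was Dkk2.

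**Figure D3:**
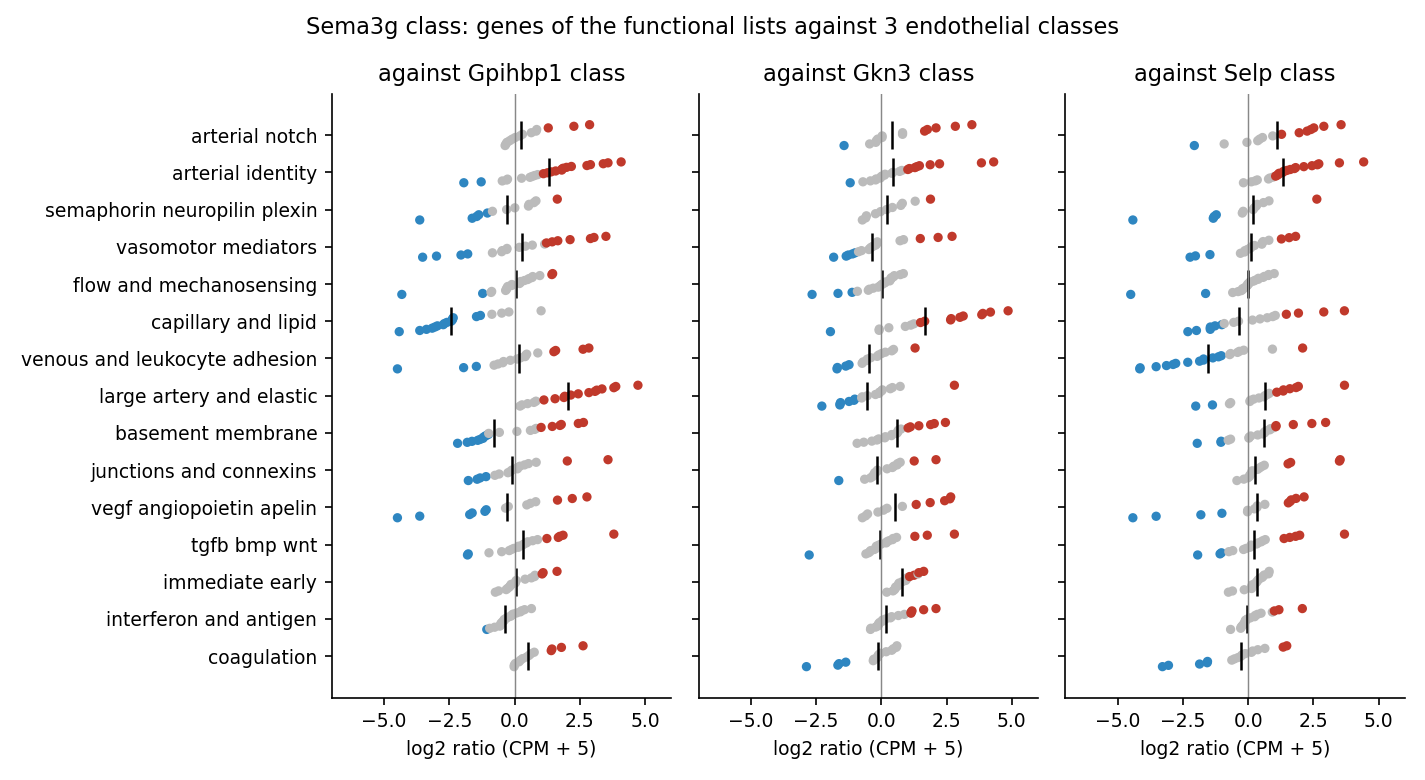
Log2 ratio of the Sema3g class to each of 3 endothelial classes (x axis, 5 CPM added) for the genes of 15 functional lists (y axis), with 1 point per gene that reached 30 CPM on either side. Red points met the size rule as higher, blue as lower, grey in neither direction, and the black line is the list median. The capillary and lipid list has a median of -2.43 against the Gpihbp1 class and 1.66 against the Gkn3 class.

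Of 20 venous and leukocyte adhesion genes compared with the Selp class, 1 was higher and 13 lower, with a median log2 ratio of -1.53. Against the Gpihbp1 class, 4 of 18 were higher and 3 lower (median 0.16), and against the Gkn3 class 1 of 16 was higher and 4 lower (median -0.47). Plvap, a diaphragm protein of fenestrated and venous endothelium, stood at 85.7 CPM against 1593 CPM in the Selp class. The venous factor Nr2f2 stood at 45.2 CPM against 434 CPM, and the apelin receptor gene Aplnr, at 0.688 CPM, was seen in 2 of the 746 cells. Vwf, von Willebrand factor, stood at 443 CPM, above the 67.6 CPM of the Gpihbp1 class and below the 1148 CPM of the Gkn3 class. Vcam1, a leukocyte adhesion molecule, stood at 395 CPM, higher than the 50.5 CPM of the Gpihbp1 class and lower than the 938 CPM of the Gkn3 class. The gene of the list that was higher than in all 3 classes was Podxl, a sialomucin of the luminal surface, at 945, 967, 949, 1041, 1001 and 1157 CPM in libraries 1 to 6. Other classes held Podxl at 233 to 409 CPM, with at most 487 CPM in any library.

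Genes that act on vessel tone had no common direction. Of 20 vasomotor genes compared, 7 were higher and 4 lower than in the Gpihbp1 class, and 3 were higher and 5 lower than in the Gkn3 class, with list medians of 0.30 and -0.35. Trpv4, a calcium channel that opens with shear and swelling, stood at 132 CPM, higher than in the Gpihbp1 (11.6 CPM) and Selp (33.9 CPM) classes and 1.80 times the Gkn3-class level. Edn1, endothelin-1, stood at 536 CPM against 67.0 CPM in the Gpihbp1 class, 625 in the Gkn3 class and 492 in the Selp class. Nos3, endothelial nitric oxide synthase, stood at 258 CPM, higher than the 78.3 CPM of the Gpihbp1 class. Kcnn4, a calcium-activated potassium channel of the endothelial hyperpolarisation response, stood at 75.4 CPM against 2.10 CPM in the Gpihbp1 class and 84.9 CPM in the Gkn3 class. Ptgs1, cyclooxygenase-1, stood at 85.0 CPM, lower than in the Gkn3 (315 CPM) and Selp (416 CPM) classes. Kcna5, a potassium channel, stood at 12.1 CPM against 192 CPM in the Gpihbp1 class. Cav1 stood at 1039 CPM and met the rule in no comparison.

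Of 22 flow and mechanosensing genes compared with the Gpihbp1 class, 2 were higher and 2 lower, near the 6.59% and 6.31% of all genes. Of 21 compared with the Gkn3 class, 0 were higher and 3 lower, where all genes gave 4.69% and 3.42%. The flow-induced factor Klf2 stood at 2340 CPM, with libraries from 2064 to 2767, above every library of the other classes, whose highest was at 2026 CPM. Its ratios of 1.38 to 1.96 were below the size rule. Aqp1 stood at 164 CPM against 3369 CPM in the Gpihbp1 class and 3822 CPM in the Selp class. Cyp1b1, a cytochrome that rises with laminar flow in cultured endothelium, stood at 53.9 CPM, lower than the 365 CPM of the Gkn3 class and higher than the 16.8 CPM of the Gpihbp1 class. Immediate-early genes, which respond to tissue dissociation, were compared as well: 3 of 17 were higher than in the Gpihbp1 class, 4 of 17 higher than in the Gkn3 class and 0 of 18 higher than in the Selp class, with 0 lower in each. Fos stood at 3725 CPM (libraries 2678 to 4349) and between 2187 and 2754 CPM in the other classes, below the size rule.

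Basement membrane genes separated the Sema3g class from the Gpihbp1 class in both directions, with 6 of 22 higher and 10 lower (median log2 ratio -0.79). Against the Gkn3 class, 6 of 20 were higher and 0 lower (median 0.61). Spock2, a proteoglycan, stood at 113 CPM against 30.5 CPM or less elsewhere, and Col18a1, a basement membrane collagen, at 241 CPM against 68.7 to 113 CPM. Without library 2, Col18a1 no longer met the rule against all 3 classes. Lama3, a laminin chain, stood at 47.5 CPM and at 19.3 CPM or less elsewhere. The main basement membrane collagen Col4a1 stood at 372 CPM, lower than the 997 CPM of the Gpihbp1 class. Col8a1 stood at 189 CPM, higher than in the Gpihbp1 (26.1 CPM) and Selp (19.8 CPM) classes.

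Among junction genes, Cldn5, the main endothelial claudin, stood at 1395 CPM, close to the 1291 CPM of the Gpihbp1 class and higher than in the Gkn3 (580 CPM) and Selp (117 CPM) classes. Of 17 junction genes compared, 2 were higher and 4 lower than in the Gpihbp1 class, and 2 higher and 1 lower than in the Gkn3 class. All genes gave 6.59% and 6.31% in the first comparison and 4.69% and 3.42% in the second. In the TGF-beta, BMP and Wnt list, 5 of 20 genes were higher and 2 lower than in the Gpihbp1 class, and 3 higher and 1 lower than in the Gkn3 class. Bmp4 stood at 122 CPM, lower than the 856 CPM of the Gkn3 class and higher than the 34.6 CPM of the Gpihbp1 class. In the VEGF, angiopoietin and apelin list, 3 of 14 genes were higher and 6 lower than in the Gpihbp1 class, and 5 of 12 higher and 0 lower than in the Gkn3 class. Flt1, a VEGF receptor, stood at 971 CPM against 2065 and 153 CPM in these classes.

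Interferon and antigen genes gave 0 of 20 higher and 1 lower than in the Gpihbp1 class, where all genes gave 6.59% and 6.31%. Against the Gkn3 class, 5 of 19 were higher and 0 lower, where all genes gave 4.69% and 3.42%. Ly6a stood at 2620 CPM and was higher than in the Gkn3 (848 CPM) and Selp (1304 CPM) classes. Of the coagulation list, 4 of 14 genes were higher than in the Gpihbp1 class with 0 lower, and 0 of 15 higher and 4 lower than in the Gkn3 class. Nt5e, which makes adenosine outside the cell, stood at 8.94 CPM against 96.9 CPM in the Gkn3 class, and Procr, the protein C receptor, at 87.3 CPM against 279 CPM in the Gkn3 class and 21.6 CPM in the Gpihbp1 class.

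The cells of the class were not alike. By the largest of the other sums, 416 of the 746 cells (55.8%) had the Gkn3 sum next, 140 (18.8%) the Gpihbp1 sum and 40 (5.36%) the Selp sum. A further 34 had a tie for the next place and 116 had no UMI of any other sum. The share with the Gkn3 sum next was 59.6%, 54.9%, 61.2%, 52.5%, 54.1% and 57.1% in libraries 1 to 6. The share with the Gpihbp1 sum next lay between 14.7% in library 1 and 27.5% in library 6. Each library thus held cells of both kinds, and the 95% counting intervals of the 6 libraries overlapped for both shares.

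These subsets differed in the genes of the class each one leaned towards. In cells with the Gkn3 sum next, Mgp ran from 9402 to 16566 CPM over the 6 libraries, against 236 to 1072 CPM in cells with the Gpihbp1 sum next. Fabp4 ran from 1810 to 3393 CPM in the first subset and from 7322 to 20960 CPM in the second. Neither gene overlapped between the subsets. Cd36 ran from 121 to 526 CPM and from 1440 to 2860 CPM, also without overlap. By the size rule, in the 5 libraries with at least 20 cells of each kind, 207 of 5762 genes were higher (3.59%) in the cells with the Gkn3 sum next and 210 lower (3.64%). The subsets were cut by rule genes of the classes they resemble, so these counts too are descriptions.

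The matrix gene Cytl1 stood at 3831 CPM in the cells with the Gkn3 sum next and at 142 CPM in those with the Gpihbp1 sum next. Hey2 stood at 68.9 CPM against 2.66 CPM, the latter from 2 UMIs in all and with an interval of 0.322 to 9.59 CPM. Gja4 stood at 345 against 94.3 CPM. Rbp7, a retinol-binding protein of capillary endothelium, stood at 64.3 against 1475 CPM, which is above the 920 CPM of the Gpihbp1 class itself. Btnl9 stood at 21.7 against 503 CPM, and Cxcl12 at 122 against 833 CPM. Each of these met the size rule. Among the genes higher than in all 3 classes, Islr2 (70.6 against 2.66 CPM) and Kcne3 (97.3 against 21.2 CPM) were higher in the cells with the Gkn3 sum next.

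Of the genes higher than in all 3 classes, Dkk2 stood at 107 against 23.9 CPM, higher with the Gkn3 sum next in 5 of 6 libraries and so short of the size rule. Cdk19 stood at 138 against 267 CPM, Jag1 at 363 against 234 CPM and Egfl8 at 65.6 against 35.9 CPM. Each was below a ratio of 2. Their intervals were separate, but these cover counting error of pooled UMIs and no spread between cells or libraries. Several others lay closer together. Gper1 stood at 70.6 CPM with the Gkn3 sum next and 58.4 CPM with the Gpihbp1 sum next. Nebl stood at 141 and 171 CPM, Eps8l2 at 163 and 193 CPM, and Ssu2 at 61.4 and 49.1 CPM. Jag2, which was not among the genes higher than in all 3 classes, stood at 202 and 187 CPM. The intervals of each pair overlapped, and none met the size rule. Hey1 stood at 108 and 219 CPM, 1.98 times higher with the Gpihbp1 sum next, and Sox17 at 386 and 544 CPM. Neither met the size rule, and their libraries overlapped. The counting intervals of Hey1 and of Sox17, as of Cdk19, were separate, without regard to the spread between libraries. Each of these genes was higher with the Gkn3 sum next in only 1 library. Alpl, too, split the class: the 423 cells with an Alpl UMI held Jag2 at 244 CPM, Jag1 at 416 CPM and Nebl at 205 CPM, and the 323 cells without one held them at 108, 177 and 67.0 CPM. Cells with Alpl had a median of 5300 UMIs and those without 4446, and Alpl is itself part of the rule. The 116 cells with no UMI of another sum held Jag2 at 170 CPM and Gper1 at 62.7 CPM, with Fabp4 at 3204 CPM and Mgp at 4260 CPM. These Fabp4 and Mgp levels are close to or between those of the other subsets.

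**Figure D4:**
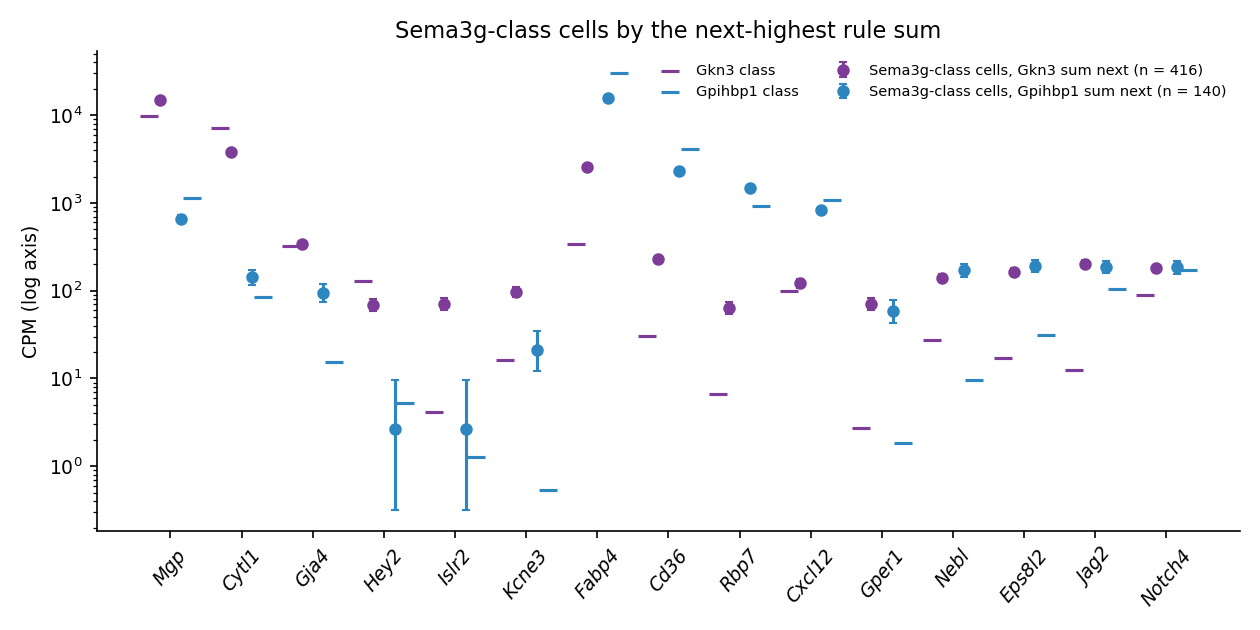
CPM (y axis, log scale) of 15 genes in Sema3g-class cells with the Gkn3 sum next (purple points, 416 cells) and with the Gpihbp1 sum next (blue points, 140 cells), with 95% counting intervals. Dashes give the Gkn3 class (purple) and the Gpihbp1 class (blue). Mgp stands at 14772 against 660 CPM and Fabp4 at 2538 against 15611 CPM, while Jag2 stands at 202 against 187 CPM.

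A last description set each cell beside its nearest neighbours. Within each library, the 20 nearest gated cells were found on 30 principal components of 2000 variable genes, with all rule and gate genes left out. A median of 62.5% of the neighbours of a Sema3g-class cell were in the same class, which makes up 8.88% of gated cells. The medians of libraries 1 to 6 were 52.5%, 65%, 40%, 65%, 65% and 70%, with library 3, which has the fewest class members, the lowest. In the same graph, the Gpihbp1, Gkn3 and Selp classes had medians of 100%, 90% and 90% of neighbours in their own class, and these classes are also larger. Of the 746 cells, 461 (61.8%) had at least 50% of their neighbours in the class and 34 (4.56%) had none. Neighbours were most often of the Gkn3 class for 146 cells, of the Gpihbp1 class for 83 and of the Selp class for 15.

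**Figure D5:**
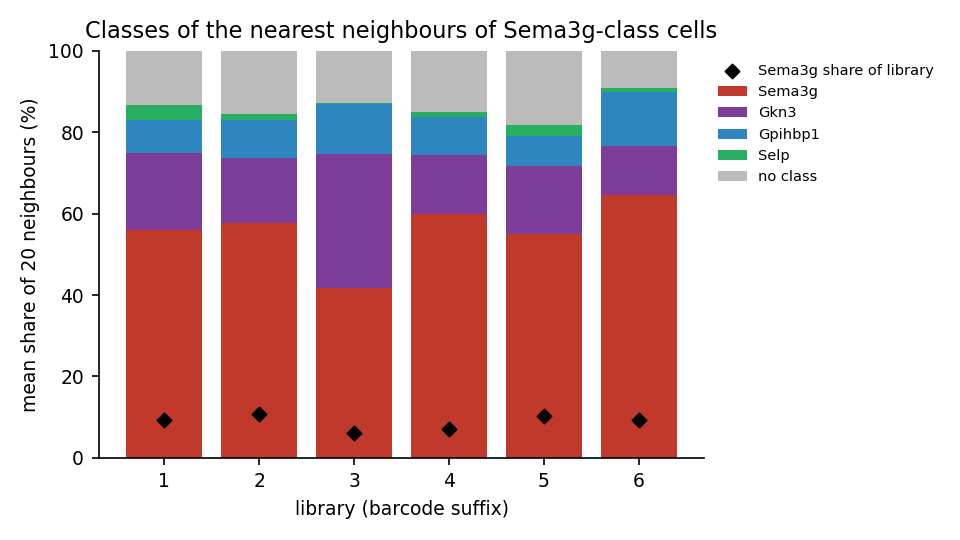
Mean share of the 20 nearest neighbours of Sema3g-class cells (y axis, percent) that fall in each endothelial class or in none, by library (x axis), with diamonds for the share of the class among the library's gated cells. Over all libraries the mean was 57.1% for the Sema3g class, 16.9% for the Gkn3 class and 9.47% for the Gpihbp1 class.

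Markers of other cell types were read in the same cells. The 9 smooth muscle genes outside the gate summed to 1005 CPM (libraries 894 to 1175), against 747 to 1157 CPM in the other classes, and all 9 were detected. The 9 fibroblast markers summed to 3370 CPM (libraries 1434 to 4577), against 3301 to 3590 CPM, where fibroblast barcodes held 50172 CPM. Pericyte markers summed to 376 CPM (libraries 201 to 833), with Rgs5 highest and library 6 at 554 CPM for it. The 10 macrophage and leukocyte markers summed to 526 CPM, from 46.8 to 920 CPM over the libraries, with Lyz2 highest. Against these ranges, the other classes held 224 to 419 CPM of the pericyte and 299 to 505 CPM of the leukocyte list.

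Since Stmn2 is known from neurons and Alpl from bone, markers of these cells were read as well. Of 9 neuronal markers, Rbfox3 was at 0 and Elavl4 had 1 UMI, and the list summed to 80.5 CPM (libraries 39.8 to 113) against 23.4 to 93.9 CPM in the other classes. Most of it was Uchl1, at 60.5 CPM, which the Gkn3 class held at 85.5 CPM. Of 8 bone and epithelial markers, the bone genes Bglap and Ibsp were at 0. The list summed to 144 CPM, from 15.5 to 471 CPM over the libraries, with Krt18 highest at 81.1 CPM, against 4.26 to 122 CPM in the other classes. The adipocyte genes Lep and Cidec were at 0, and that list summed to 19.0 CPM. Lymphatic markers outside the gate summed to 113 CPM, endocardial and cardiac markers to 130 CPM and cycling markers to 142 CPM, against 74.6 to 191 CPM for these 3 lists in the other classes. The part of such RNA in the levels given above was not tested, apart from the barcodes with Epcam or Ptprc.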

How the data were processed

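The counts deposited by the authors are raw UMIs in whole numbers, in 1 matrix of 55450 genes by 60871 barcodes of 6 libraries. The file headers name cellranger 6.1.2, while the submitters' processing notes list bcl2fastq 5.01, Cell Ranger 3.1.0, Seurat 3.1.1 and the build GRCm38. No source used here says whether depth was equalised between libraries. All identifiers were found in GENCODE M21, from which coordinates were taken.

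Libraries match no sample label, so the 3 control and 3 knockout samples were not compared, no test was made and values are given per library. Members and lists were chosen with earlier results of these data known. UMIs were summed per class and library and scaled to CPM. Intervals are exact Poisson (CPM) or Clopper-Pearson (shares) intervals at 95%, and limits for a count of 0 use 3 counts. The total UMIs per library were 51813179 to 96144873.

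Named were the 6 label markers and the rule genes, up to 15 genes with the largest ratio above and 10 below all 3 classes, and per functional list up to 3 genes with the largest ratio to the other gated barcodes and the gene of highest CPM. Further genes of the lists, and further genes in the accounts of subsets, were chosen after their values were seen. Of 309 listed genes, 308 were in the matrix. Of the lists of other cell types, 1 is not reported here. UMI counts of near-identical copies may be split between them. The size rule was run on simulated Poisson counts that held no spread between libraries or cells beyond counting. How it behaves under such spread was not tested. Doublets were called with Scrublet in scanpy 1.11.5 per library and kept, except in an alternative. Nearest neighbours came from scikit-learn 1.9.0; the other steps ran on pandas 2.3.3, scipy 1.17.1 and numpy 2.4.6 under Python 3.11.15.

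Alternatives were a minimum of 1000 genes, at most 10% mitochondrial UMIs, doublets left out, class sums of at least 5 UMIs, each library left out, 1 CPM added, a level of 10 CPM, a fold of 1.5, equal weight of cells, 10 neighbours and thinning to 2000 UMIs. Added after seeing the data were at least 2 rule genes per class member, shared barcodes left out, and barcodes with Epcam or Ptprc left out.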

Additional observations from a re-analysis of the deposited data

How the results depend on the processing

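The counts of genes against each class, the number of cells and the neighbour share stayed within 1.5 times their value under the alternatives of gene number, mitochondrial limit, doublets, added CPM, cell weight, shared barcodes and Epcam or Ptprc. The number of genes lower than in all 3 classes, 3 as reported, was 5 with class sums of at least 5 UMIs, 5 with a level of 10 CPM and 9 with at least 2 rule genes required. With a fold of at least 1.5, the genes higher and lower were 617 and 626 against the Gpihbp1 class, 531 and 414 against the Gkn3 class, 573 and 495 against the Selp class, and 109 and 15 against all 3. With each library left out in turn, the class held 582 to 697 cells, with a neighbour median of 60% to 65%. Genes higher and lower then numbered 374 to 397 and 358 to 382 against the Gpihbp1 class, 236 to 274 and 176 to 212 against the Gkn3 class, 313 to 339 and 267 to 275 against the Selp class, and 48 to 61 and 3 to 4 against all 3. Of the 54 genes higher than in all 3 classes, 44 remained without library 2 and 48 when at least 2 rule genes were required. Over 74 named genes, no ratio to the other gated barcodes that met the size rule changed direction. Of 746 such ratios and detection shares under the alternatives, 34 moved beyond the spread between libraries or, for shares, beyond their counting interval. All 6 detection shares in this count moved when cells were thinned to 2000 UMIs, that of Sox17 from 72.8% to 47.3%. The causes of these shifts were not tested, apart from the thresholds and cells each setting changes. No paired analysis was possible because the libraries carry no replicate number of a sample and no result comes from a test between groups. Depth limits single-cell detection: at 2000 UMIs a gene such as Hey1 was seen in 20.4% of class members.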
